A study of Mus musculus with 8 samples.

Results

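The genes of 9 G protein-coupled receptors for chemokines and other leukocyte chemoattractants were followed here in mouse dendritic cells after siRNA knockdown of Suclg2, the GTP-specific subunit of mitochondrial succinyl-CoA ligase. They were chosen by name, as the rows of the deposited table for Ccr1, Ccr2, Ccr7, Cx3cr1, Cxcr4, Fpr1, Fpr2, Ptafr and Ltb4r1, which are 9 of its 15465 genes. The choice was made with earlier results of these data known. The design held 4 samples transfected with an siRNA against Suclg2 (si-Suclg2) and 4 transfected with a control siRNA (si-nc), all labelled wild type and of the strain C57/BL6. All 8 samples shared 1 history: bone marrow cells grown for 6 days with GM-CSF and IL-4, 24 hours of LPS, selection of CD11c-positive cells, and 9 days on spleen stroma before transfection. The labels call the cells BMDC and, after the coculture, diffDC; the series title speaks of regulatory dendritic cells. The labels do not say whether replicates came from separate animals or cultures, so p-values measure the spread between these samples, which may be technical. Expression is given as FPKM (fragments per kilobase of transcript, scaled to library size), a unit inferred from the values, and the depth of each library is unknown.

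Chemoattractant receptors steer leukocytes along gradients of their ligands. They couple mainly to inhibitory G proteins, whose freed beta-gamma subunits drive phosphoinositide 3-kinase gamma and the Rac-dependent actin machinery, and they are switched off by receptor kinases, arrestins and RGS proteins. In dendritic cells and monocytes the repertoire tracks the stage of life: inflammatory receptors such as Ccr1 and Ccr2 bring cells into tissue, formyl peptide and lipid receptors act at short range near microbes and dying cells, and Ccr7 guides maturing cells to lymph nodes.

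The siRNA target itself was at 2.23, 2.30, 2.76 and 2.61 FPKM in si-Suclg2 samples 1 to 4, against 4.68, 4.69, 4.56 and 4.43 FPKM in si-nc samples 1 to 4, and its groups did not overlap. It was called lower, at 53.9% of the si-nc level (-0.69 ± 0.066 on the log2 scale, SE; adjusted p by limma = 8.84e-05). Summed FPKM ran from 511202 to 539290 in si-Suclg2 samples and from 506241 to 532186 in si-nc samples. In both groups the samples numbered 1 and 2 resembled each other, as did those numbered 3 and 4, and this division runs through several receptor genes below. The labelled cell type was checked against its markers. Genes shared by macrophages and monocytes were abundant, with Lyz2 at 7455 ± 714 FPKM in si-Suclg2 and 10380 ± 1140 FPKM in si-nc samples (SD, n = 4 each), and all 10 genes of that list were tested. Of 10 conventional dendritic cell genes listed, 7 were in the table, and 3 of them, Flt3, Zbtb46 and Clec9a, did not reach 1 FPKM in either group. The other 4 were measured above it: H2-Ab1, an MHC class II gene that macrophages also express, at 103.8 ± 32.0 FPKM in si-Suclg2 and 151.4 ± 20.4 FPKM in si-nc samples, Clec10a at 4.19 ± 0.136 FPKM in si-Suclg2 and 12.6 ± 4.62 FPKM in si-nc samples, Batf3 at 2.06 ± 0.540 FPKM in si-Suclg2 and 1.21 ± 0.498 FPKM in si-nc samples, and Itgax, which encodes CD11c, at 12.6 ± 0.958 FPKM in si-Suclg2 and 20.2 ± 2.84 FPKM in si-nc samples (SD, n = 4 each).

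Of the 9 receptor genes, 4 rose and 3 fell with si-Suclg2. Fpr1, Fpr2, Ltb4r1 and Ccr1 were higher, Cxcr4, Ptafr and Ccr2 were lower, and Ccr7 and Cx3cr1 did not pass the test (limma on log2(FPKM + 1), Benjamini-Hochberg adjusted p under 0.05 over all 10176 genes tested). Among all genes tested, 12.0% passed as higher, 14.9% as lower and 26.9% in either direction. The median size of the log2 fold change was 0.77 over the 9 receptor genes and 0.12 over all genes tested; the signed medians were 0.21 and -0.03. All 9 receptor genes passed the filter on low values (a mean of at least 1 FPKM in a group), but Ltb4r1 passed it only through the si-Suclg2 group, so its difference is partly built into its selection. Groups did not overlap for 6 of the 9 receptor genes, against 29.6% of all genes tested. The receptor genes were chosen with earlier results of these data known, so these comparisons with all genes describe them and do not test them. Since bulk RNA was measured, fewer cells that carry a receptor and less receptor mRNA per cell cannot be told apart.

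**Figure D1:**
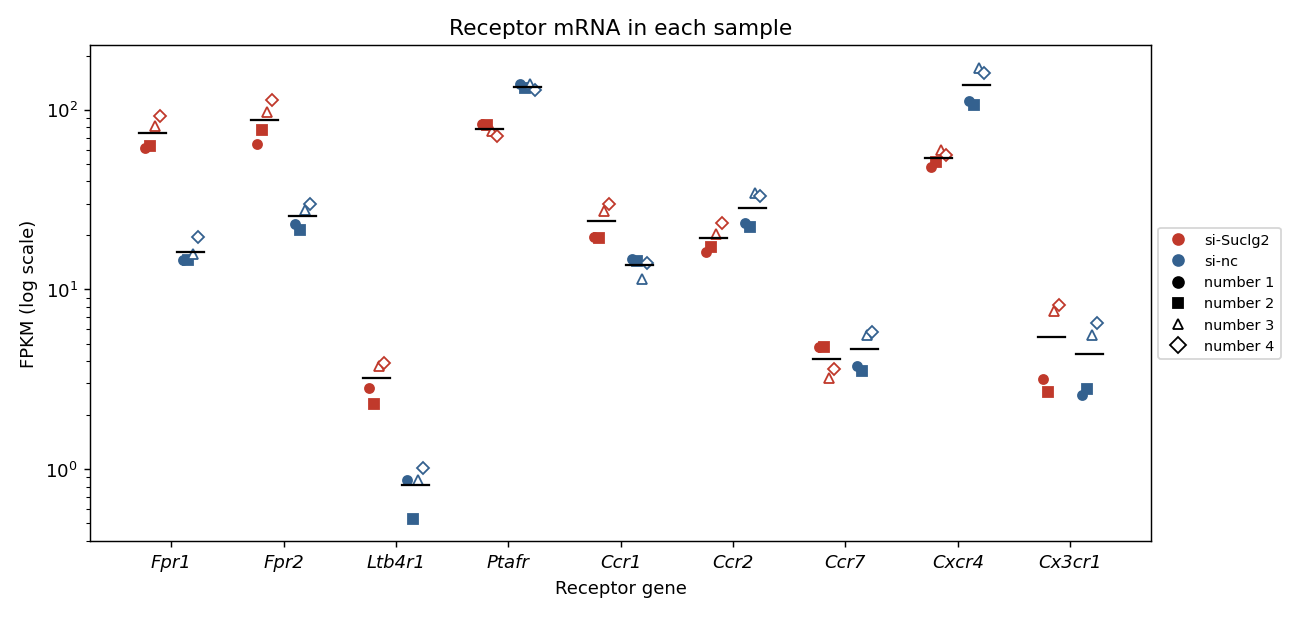
FPKM of the 9 receptor genes in each sample on a log scale, si-Suclg2 in red to the left of si-nc in blue for each gene, with a symbol for each replicate number and a bar at the group mean. Fpr1 and Fpr2 lie far apart between groups (74.4 against 16.2 FPKM and 88.0 against 25.5 FPKM on average), while the groups of Ccr7 and Cx3cr1 overlap.

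Fpr1 and Fpr2 encode receptors for formylated peptides, which bacteria and damaged mitochondria release, and Fpr2 also takes up lipid and protein ligands such as serum amyloid A. Both rose in all 4 same-numbered pairs of samples. Fpr1 (gene ID 14293; GRCm38 chromosome 17, 17876471 to 17883940, minus strand) was at 61.5, 62.6, 80.8 and 92.9 FPKM in si-Suclg2 samples 1 to 4, against 14.7, 14.6, 15.8 and 19.6 FPKM in si-nc samples 1 to 4. Every si-Suclg2 sample was above every si-nc sample, with the highest values of both groups in sample 4. The ratio of means was 4.61 and the log2 fold change 2.12 ± 0.140 (SE; adjusted p by limma = 1.00e-05). Only 9 of the genes tested had a larger log2 fold change.

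Fpr2 (gene ID 14289; chromosome 17, 17887824 to 17893952, plus strand) was at 64.7, 77.0, 97.4 and 112.9 FPKM in si-Suclg2 samples 1 to 4, against 23.0, 21.4, 27.7 and 30.0 FPKM in si-nc samples 1 to 4. The groups were again apart, and samples 3 and 4 were above samples 1 and 2 in both. The ratio of means was 3.45 and the log2 fold change 1.73 ± 0.168 (SE; adjusted p by limma = 9.84e-05). The value of Fpr2 is less certain than that of Fpr1: of its 1084 distinct 50-base windows, 37.2% also occur in transcripts of other genes, 368 of them in the pseudogene Gm5966 and 77 in the neighbouring receptor gene Fpr3. The figure for Fpr1 was 0.08%. Fpr2 also shares 48 of its 1296 annotated exon bases with Fpr3 on the same strand. How the authors assigned such reads is not given in the sources used here.

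Fpr1 and Fpr2 are neighbours that point away from each other, with 3884 bases between their annotated starts in GENCODE M21 and no protein-coding gene in between. In the FPKM of each sample, the ratio of Fpr2 to Fpr1 lay between 1.05 and 1.23 in si-Suclg2 samples and between 1.46 and 1.75 in si-nc samples, so the pair came closer to equal levels. Over the 8 samples, the log2 profiles nearest to that of Fpr1 were those of Tarm1, Socs3 and Fpr2, with root mean square differences of 0.184, 0.294 and 0.295 log2 units after the si-nc mean was subtracted. Tarm1, a myeloid activating receptor gene, was at 22.2 ± 4.70 FPKM in si-Suclg2 and 3.59 ± 0.730 FPKM in si-nc samples, and Socs3, which encodes an inhibitor of cytokine signalling, at 18.2 ± 5.46 FPKM in si-Suclg2 and 4.58 ± 1.70 FPKM in si-nc samples (SD, n = 4 each).

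The 250 bases upstream of the RefSeq start (GRCm38.p6) are printed for the neighbouring pair Fpr1 and Fpr2, which rose, and for Cxcr4 and Ptafr, the lower receptor genes whose groups did not overlap. Capitals mark matches on either strand to any of 8 motifs searched.
Fpr1, chr17:17883940-17884189, minus strand: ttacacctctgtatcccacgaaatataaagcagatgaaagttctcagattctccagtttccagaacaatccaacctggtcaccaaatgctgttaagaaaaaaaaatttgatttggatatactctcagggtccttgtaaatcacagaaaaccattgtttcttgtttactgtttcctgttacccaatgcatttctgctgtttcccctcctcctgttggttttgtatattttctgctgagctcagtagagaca
Fpr2, chr17:17887574-17887823, plus strand: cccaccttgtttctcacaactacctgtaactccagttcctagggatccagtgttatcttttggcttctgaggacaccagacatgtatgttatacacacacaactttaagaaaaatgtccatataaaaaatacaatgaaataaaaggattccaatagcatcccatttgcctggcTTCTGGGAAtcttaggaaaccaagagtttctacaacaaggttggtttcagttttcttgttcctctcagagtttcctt
Cxcr4, chr1:128592300-128592549, minus strand: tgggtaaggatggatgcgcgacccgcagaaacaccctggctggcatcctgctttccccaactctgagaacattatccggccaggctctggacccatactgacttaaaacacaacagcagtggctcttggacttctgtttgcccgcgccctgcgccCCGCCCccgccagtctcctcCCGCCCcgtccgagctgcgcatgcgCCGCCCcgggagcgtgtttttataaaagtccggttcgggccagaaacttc
Ptafr, chr4:132563817-132564066, plus strand: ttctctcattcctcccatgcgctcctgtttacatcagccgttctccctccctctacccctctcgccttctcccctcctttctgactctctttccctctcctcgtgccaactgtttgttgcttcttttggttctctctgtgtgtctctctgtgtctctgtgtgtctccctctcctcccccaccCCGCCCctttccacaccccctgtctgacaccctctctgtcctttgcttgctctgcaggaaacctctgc
The motifs were PU.1 (GAGGAAG), C/EBP (TTGCNNAA), STAT (TTCNNNGAA), kappa B, AP-1 (TGANTCA), the interferon response element ISRE, HIF (ACGTG) and Sp1 (GGGCGG). Fpr2 held 1 STAT match, 77 to 69 bases upstream of its start, a motif that 7.02% of 32851 RefSeq promoters of this length also held. Fpr1 held no match in this window. Cxcr4 held 3 Sp1 matches, at 95 to 90, 75 to 70 and 50 to 45 bases upstream, and Ptafr 1, at 68 to 63 bases; 32.7% of all promoters held this motif. GC content was 38.4% for Fpr1, 38.8% for Fpr2, 61.2% for Cxcr4 and 56.0% for Ptafr, beside a median of 52.4% over all promoters. The promoters not printed did not keep this division. That of Ltb4r1, which rose, had 56.8% GC, 1 Sp1 match and 1 PU.1 match. That of Ccr1, which also rose, had 43.6% GC and 1 kappa B match. That of Ccr2, which fell, had 37.2% GC and no match. Sp1 matches occurred in 3 of the 8 receptor gene promoters. These matches describe letters only and were not tied to binding of any factor.

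The remaining receptors of small lipid mediators moved in opposite directions. Ltb4r1 (gene ID 16995; chromosome 14, 55765962 to 55768494, plus strand), the high-affinity receptor of leukotriene B4, was at 2.83, 2.31, 3.77 and 3.92 FPKM in si-Suclg2 samples 1 to 4, against 0.87, 0.53, 0.87 and 1.01 FPKM in si-nc samples 1 to 4. Its mean was the lowest of the 9 receptor genes in both groups, although in si-Suclg2 samples 3 and 4 it lay above Ccr7, and its groups did not overlap. The ratio of means was 3.91, and the log2 fold change on the scale with 1 added, which understates low genes, was 1.20 ± 0.139 (SE; adjusted p by limma = 2.70e-04). With 0.1 added in place of 1, it was 1.85 ± 0.216 (SE). Ltb4r1 passed the filter on low values only through si-Suclg2, so its difference is partly built into its selection. Ptafr (gene ID 19204; chromosome 4, 132564067 to 132582683, plus strand), the receptor of platelet-activating factor (PAF), was at 83.7, 82.3, 76.6 and 71.5 FPKM in si-Suclg2 samples 1 to 4, against 138.4, 132.2, 139.6 and 128.3 FPKM in si-nc samples 1 to 4. It had the least spread of the 9 relative to its level. The level with si-Suclg2 was 58.3% of that with si-nc, a log2 fold change of -0.77 ± 0.057 (SE; adjusted p by limma = 1.89e-05). The profiles nearest to that of Ptafr belonged to Cebpa, Pdxk and Rapgef6, with root mean square differences of 0.0464, 0.0503 and 0.0704 log2 units over the 8 samples. Cebpa, a myeloid transcription factor gene, was at 32.0 ± 1.40 FPKM in si-Suclg2 and 55.2 ± 1.84 FPKM in si-nc samples (SD, n = 4 each).

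Enzymes that make or destroy these lipids were listed beside the receptors. Of 8 genes for PAF synthesis and breakdown, all tested, 2 rose and 1 fell, with a median log2 fold change of 0.07. Among all genes tested, 26.9% were called in either direction. Pla2g7, the secreted PAF acetylhydrolase, rose to 616.4 ± 47.4 FPKM in si-Suclg2 samples, against 406.0 ± 16.3 FPKM in si-nc samples (SD, n = 4 each; limma adjusted p = 1.31e-04). Pla2g4a, the cytosolic phospholipase A2 that frees arachidonate and lyso-PAF, rose to 12.8 ± 2.20 FPKM in si-Suclg2 samples, against 7.21 ± 1.32 FPKM in si-nc samples (limma adjusted p = 0.00341). Lpcat1, an acyltransferase, fell to 11.1 ± 1.43 FPKM with si-Suclg2, against 13.9 ± 1.47 FPKM with si-nc (limma adjusted p = 0.0444), and its relative Lpcat2, the inducible PAF-forming enzyme, was at 108.3 ± 16.6 FPKM in si-Suclg2 and 114.5 ± 19.1 FPKM in si-nc samples without passing the test (adjusted p = 0.711). For leukotriene B4, Alox5, the enzyme that starts the pathway, had a mean under 1 FPKM in both groups and was not tested. Alox5ap, its activating protein, rose to 368.6 ± 30.6 FPKM with si-Suclg2, against 300.6 ± 13.1 FPKM with si-nc (limma adjusted p = 0.00822). Cyp4f18, which inactivates leukotriene B4 in mouse neutrophils, fell to 13.3 ± 1.82 FPKM with si-Suclg2, against 25.4 ± 9.84 FPKM with si-nc (limma adjusted p = 0.0298), and Lta4h, the leukotriene A4 hydrolase, did not pass (15.7 ± 1.37 FPKM in si-Suclg2 and 17.1 ± 0.860 FPKM in si-nc samples, adjusted p = 0.215).

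Among chemokine receptors, Cxcr4 showed the largest fall. Cxcr4 (gene ID 12767; chromosome 1, 128588199 to 128592293, minus strand), which retains leukocytes in bone marrow and tissue by way of the ligand Cxcl12, was at 48.3, 50.9, 59.6 and 55.7 FPKM in si-Suclg2 samples 1 to 4, against 112.3, 106.0, 170.8 and 160.2 FPKM in si-nc samples 1 to 4. All si-Suclg2 values lay close together, while si-nc samples 3 and 4 stood well above si-nc samples 1 and 2. The level with si-Suclg2 was 39.0% of that with si-nc, the log2 fold change was -1.31 ± 0.151 (SE; adjusted p by limma = 2.66e-04), and 19 of the genes tested fell further. The remaining level was 34.8% in the samples numbered 3 and 4 and 45.4% in those numbered 1 and 2. This difference passed in a fit with an interaction term, added after the division was seen (numbers 3 and 4 minus numbers 1 and 2, -0.38 ± 0.075 on the log2 scale, SE; adjusted p by limma = 0.0476). Samples of a number pair resembled each other and may be technical, so this p-value measures the spread within such pairs only. Among all genes tested, 1.01% passed that interaction test, as did 3 of the 9 receptor genes.

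Ccr1 and Ccr2, receptors of inflammatory CC chemokines that lie in the same receptor gene cluster on chromosome 9, went opposite ways. Ccr1 (gene ID 12768; 123962124 to 123968692, minus strand), which binds Ccl3, Ccl5 and Ccl7 among others, was at 19.6, 19.4, 27.4 and 29.8 FPKM in si-Suclg2 samples 1 to 4, against 14.8, 14.4, 11.5 and 14.0 FPKM in si-nc samples 1 to 4. Its groups did not overlap, and the gap was wider for numbers 3 and 4. The log2 fold change was 0.76 ± 0.142 (SE; adjusted p by limma = 0.00389), with a ratio of means of 2.25 in numbers 3 and 4 and 1.34 in numbers 1 and 2. This difference passed the interaction test (0.72 ± 0.111, SE; adjusted p by limma = 0.0203). The number pairs were seen in these data, and that p-value measures only the spread within them. When each pair of numbers was averaged first and the averages served as replicates, Ccr1 was no longer called (log2 fold change 0.75, limma adjusted p = 0.111).

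Ccr2 (gene ID 12772; 124101950 to 124113557, plus strand), the receptor through which monocytes leave the bone marrow towards Ccl2 and its relatives, was at 16.1, 17.3, 20.4 and 23.3 FPKM in si-Suclg2 samples 1 to 4, against 23.4, 22.2, 34.6 and 33.0 FPKM in si-nc samples 1 to 4. The groups overlapped by si-Suclg2 sample 4, yet each si-Suclg2 sample was below the si-nc sample of its own number. The level was 68.1% of that with si-nc, and the log2 fold change -0.52 ± 0.160 (SE; adjusted p by limma = 0.0387; two-sided exact permutation p = 0.0571). The call is the least firm of the 7. It was lost without the filter (adjusted p = 0.0731), with pair means as replicates (0.262), and when si-Suclg2 replicate 1, 2 or 3 or si-nc replicate 3 or 4 was left out (0.0608 to 0.0958), whereas it held with the replicate number as a block (-0.52 ± 0.060, SE; adjusted p = 2.60e-04). Ccr2 shares 2.27% of its 50-base windows with other genes. The exact permutation test over the 70 ways to divide 8 samples gave 0.0286, the smallest p it can give, for each of Fpr1, Fpr2, Ltb4r1, Ccr1, Cxcr4 and Ptafr. In the authors' deposited table the log2 fold changes of all 9 receptor genes had the same sign as here, between 2.20 for Fpr1 and -1.35 for Cxcr4. These come from the same 8 samples, so the equal signs add no independent evidence.

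**Figure D2:**
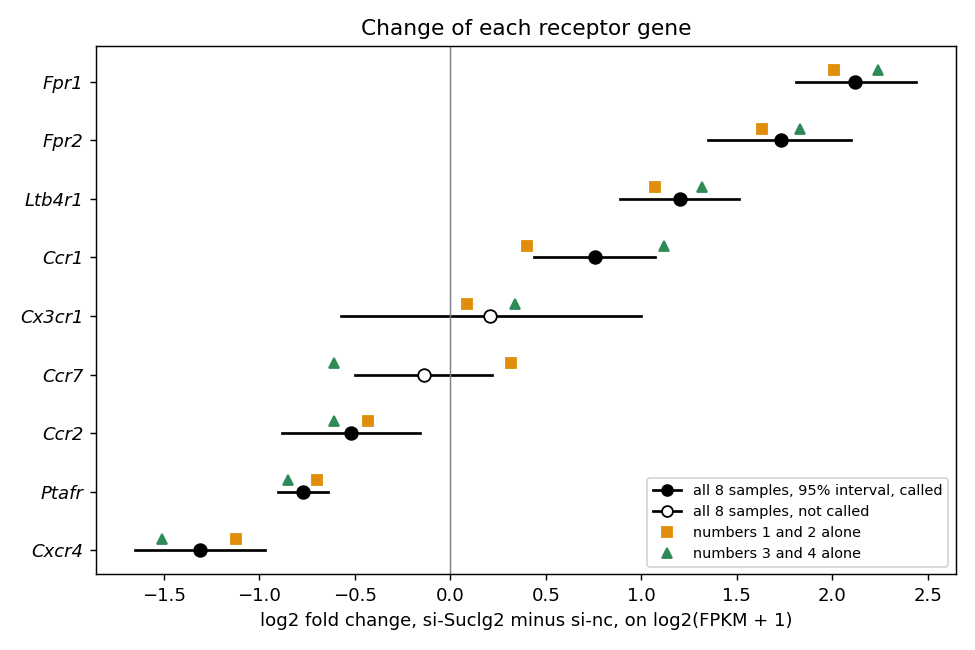
Log2 fold change (si-Suclg2 minus si-nc, on log2(FPKM + 1)) of each receptor gene from all 8 samples with its 95% interval (circles; filled where called), and from the samples numbered 1 and 2 (squares) or 3 and 4 (triangles) alone. Fpr1 stands at 2.12 and Cxcr4 at -1.31, and Ccr7 lies at -0.61 in numbers 3 and 4 and at 0.32 in numbers 1 and 2.

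Ccr7 and Cx3cr1 were low in both groups and were not called. Ccr7 (gene ID 12775; chromosome 11, 99144196 to 99155077, minus strand) was at 4.80, 4.78, 3.20 and 3.59 FPKM in si-Suclg2 samples 1 to 4, against 3.77, 3.52, 5.57 and 5.80 FPKM in si-nc samples 1 to 4. The si-Suclg2 sample was the higher of its number for numbers 1 and 2 and the lower for numbers 3 and 4. Pooled, the log2 fold change was -0.14 (95% interval -0.50 to 0.22, limma adjusted p = 0.560). In numbers 3 and 4 alone it was -0.61 (limma adjusted p = 8.04e-04) and in numbers 1 and 2 alone 0.32 (limma adjusted p = 0.0125), with an interaction of -0.92 ± 0.103 (SE; adjusted p by limma = 0.00743). The number pairs were seen in these data, and samples of a pair resembled each other and may be technical. These p-values measure the spread within such pairs and do not show that the opposite directions would recur. Among all genes tested, 0.0491% were, like Ccr7, called higher in numbers 1 and 2 alone and lower in numbers 3 and 4 alone. The authors' deposited table gives Ccr7 a log2 fold change of -0.19 and a q-value of 0.0274 from DEGseq. Whether the numbers mark separate cultures, days or batches is not given in the sources used here.

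Cx3cr1 (gene ID 13051; chromosome 9, 119901616 to 120069879, minus strand), the receptor of the membrane-bound chemokine Cx3cl1 that patrolling monocytes and many tissue macrophages carry, was at 3.19, 2.68, 7.55 and 8.20 FPKM in si-Suclg2 samples 1 to 4, against 2.60, 2.79, 5.61 and 6.47 FPKM in si-nc samples 1 to 4. Samples 3 and 4 were above samples 1 and 2 in both groups, a gap larger than that between groups. Of its 4505 annotated exon bases, 78 lie under the antisense gene Gm33858, whose reads could not be told apart if counting ignored strand. The log2 fold change was 0.21 (95% interval -0.57 to 1.0, limma adjusted p = 0.701). With the replicate number as a block it was 0.21 ± 0.073 (SE) and was called higher (limma adjusted p = 0.0482), with 3 of 4 same-numbered pairs in that direction. With that block, 8 of the 9 receptor genes were called, 5 higher and 3 lower, while 18.0% of all genes tested were called higher, 22.5% lower and 40.5% in either direction. In the authors' deposited table Cx3cr1 had a log2 fold change of 0.26 and a DEGseq q-value of 4.59e-06, unlike the main fit here.

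**Figure D3:**
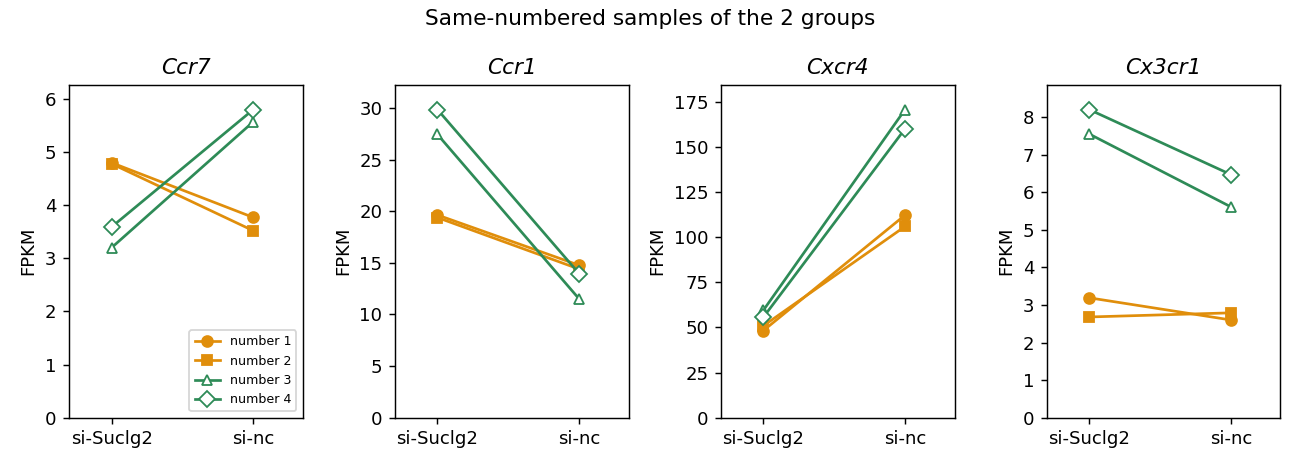
FPKM of Ccr7, Ccr1, Cxcr4 and Cx3cr1 (y axes from 0) in si-Suclg2 (left) and si-nc (right), with lines joining samples of the same number, orange for numbers 1 and 2 and green for 3 and 4. The lines of Ccr7 cross, at 3.20 and 3.59 FPKM with si-Suclg2 for numbers 3 and 4 and 4.80 and 4.78 FPKM for numbers 1 and 2, and those of Cx3cr1 differ more by number than by group.

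Read per length, the order of the receptor genes changed between groups. In si-Suclg2 samples Fpr2 (mean 88.0 FPKM), Ptafr (78.5) and Fpr1 (74.4) came first, with ranges that overlapped from one to the next, followed by Cxcr4 (53.6), Ccr1 (24.1), Ccr2 (19.3), Cx3cr1 (5.41), Ccr7 (4.09) and Ltb4r1 (3.21). The ranges of Ccr1 and Ccr2, of Cx3cr1 and Ccr7, and of Ccr7 and Ltb4r1 also overlapped. In si-nc samples Cxcr4 (137.3 FPKM) and Ptafr (134.6) came first with overlapping ranges, followed by Ccr2 (28.3), Fpr2 (25.5), Fpr1 (16.2), Ccr1 (13.7), Ccr7 (4.67), Cx3cr1 (4.37) and Ltb4r1 (0.820), where neighbours overlapped for Ccr2 and Fpr2, Fpr1 and Ccr1, and Ccr7 and Cx3cr1.

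The summed FPKM of the 9 receptor genes was between 304.7 and 401.8 in si-Suclg2 samples and between 317.6 and 412.0 in si-nc samples. These ranges overlapped almost fully, so the make-up differed more than the sum. Fpr1 and Fpr2 held 41.4% to 51.2% of the sum in si-Suclg2 samples and 10.5% to 12.5% in si-nc samples, while Cxcr4 and Ptafr held 31.7% to 43.3% in si-Suclg2 samples and 72.4% to 75.4% in si-nc samples. The ratio of Fpr1 to Cxcr4 was 1.23 to 1.67 in si-Suclg2 samples and 0.0923 to 0.138 in si-nc samples, and that of Ccr1 to Ccr2 was 1.12 to 1.34 in si-Suclg2 samples and 0.333 to 0.649 in si-nc samples. These sums describe the members and were not tested.

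**Figure D4:**
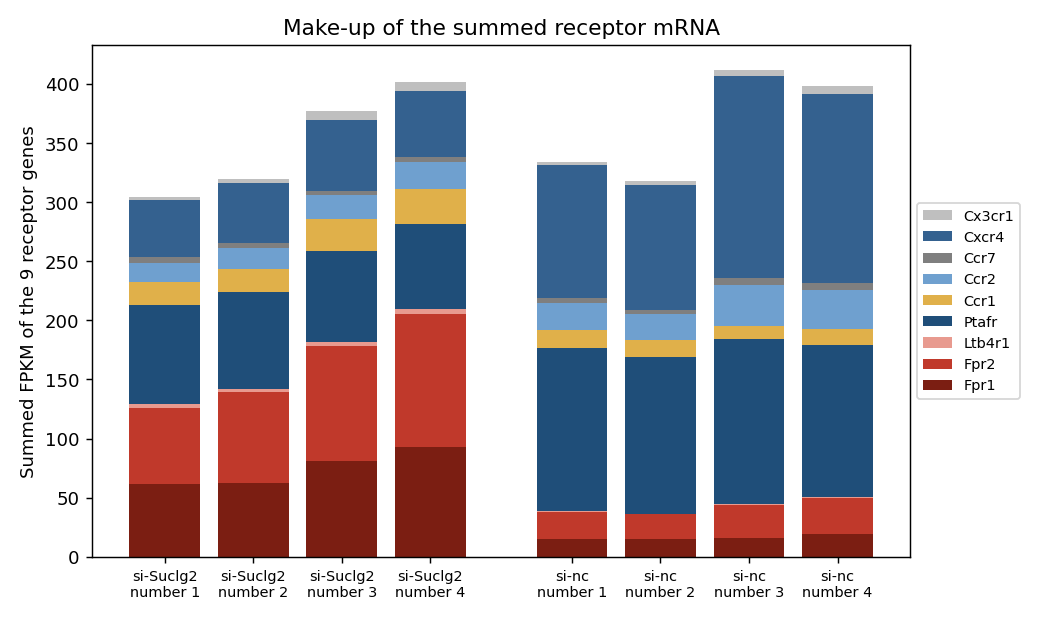
Stacked FPKM of the 9 receptor genes in each sample (y axis from 0), si-Suclg2 samples left of si-nc samples. Fpr1 and Fpr2 (dark and mid red, at the foot) take 41.4% to 51.2% of the bar in si-Suclg2 samples and 10.5% to 12.5% in si-nc samples.

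The rest of the receptor families gives the setting. Of 19 other chemokine receptor genes listed, 14 were in the table and 11 of these had means under 1 FPKM in both groups, with no sample above 0.89 FPKM. Among those tested, Ccrl2, an atypical receptor that holds chemerin without signalling, fell to 34.8 ± 2.27 FPKM with si-Suclg2, against 56.3 ± 2.99 FPKM with si-nc (limma adjusted p = 4.73e-05), and Cxcr3 fell to 3.55 ± 0.584 FPKM with si-Suclg2, against 5.04 ± 0.886 FPKM with si-nc (limma adjusted p = 0.0313). Of 8 other chemoattractant receptor genes tested, 4 rose and 4 did not pass, with a median log2 fold change of 0.13. Among all genes tested, 12.0% were called higher and 14.9% lower. The largest rise was in Cysltr1, a receptor of cysteinyl leukotrienes, at 17.0 ± 1.71 FPKM in si-Suclg2 and 10.7 ± 0.323 FPKM in si-nc samples (limma adjusted p = 2.22e-04), and Cysltr2 was at 6.20 ± 0.552 FPKM in si-Suclg2 and 4.59 ± 0.442 FPKM in si-nc samples (limma adjusted p = 0.00781). S1pr1, a receptor of sphingosine 1-phosphate, rose to 13.7 ± 0.107 FPKM with si-Suclg2, against 11.1 ± 0.147 FPKM with si-nc (limma adjusted p = 8.56e-04), and C3ar1, the complement C3a receptor, to 480.9 ± 14.8 FPKM with si-Suclg2, against 411.8 ± 16.5 FPKM with si-nc (limma adjusted p = 0.00578). The C5a receptor gene C5ar1 was at 110.0 ± 2.05 FPKM in si-Suclg2 and 107.0 ± 5.30 FPKM in si-nc samples and did not pass (log2 fold change 0.04 ± 0.044 SE; adjusted p by limma = 0.536).

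Ligand genes of the receptors were read in the same fit. Of 6 genes listed for Ccr1, 3 rose and 1 fell: Ccl5, Ccl7 and Ccl9 were higher, with ratios of means of 2.38, 3.68 and 1.29, and Ccl6 was lower, at 300.5 ± 11.8 FPKM in si-Suclg2 and 359.8 ± 13.9 FPKM in si-nc samples (SD, n = 4 each). Ccl3, at 173.4 ± 31.6 FPKM in si-Suclg2 and 166.0 ± 10.7 FPKM in si-nc samples, did not pass (limma adjusted p = 0.802). Of 4 genes listed for Ccr2, Ccl2, Ccl7 and Ccl12 rose, with ratios of means of 2.50, 3.68 and 2.78, while the receptor gene fell; their summed FPKM with Ccl8 was 714.4 to 859.3 in si-Suclg2 samples and 265.9 to 317.2 in si-nc samples. For Fpr2, Saa3, an acute-phase protein gene, had a ratio of means of 7.71 (limma adjusted p = 7.13e-06), and Anxa1, the gene of an anti-inflammatory ligand of the formyl peptide receptors, did not pass (243.1 ± 6.84 FPKM in si-Suclg2 and 279.2 ± 48.8 FPKM in si-nc samples, limma adjusted p = 0.252). Mif, a cytokine that human CXCR4 also binds, rose to 244.1 ± 51.6 FPKM with si-Suclg2, against 161.1 ± 13.2 FPKM with si-nc (limma adjusted p = 0.0114). Cx3cl1 was scarce, at 0.725 ± 0.295 FPKM in si-Suclg2 and 1.30 ± 0.165 FPKM in si-nc samples, and was called lower (limma adjusted p = 0.0280), but it passed the filter on low values only through si-nc, so its difference is partly built into its selection. Adam17, a protease that sheds it, fell, at 35.8 ± 1.84 FPKM in si-Suclg2 and 44.7 ± 0.821 FPKM in si-nc samples (limma adjusted p = 9.50e-04). Cxcl12 and the Ccr7 ligand genes Ccl19 and Ccl21a were not analysed here.

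**Figure D5:**
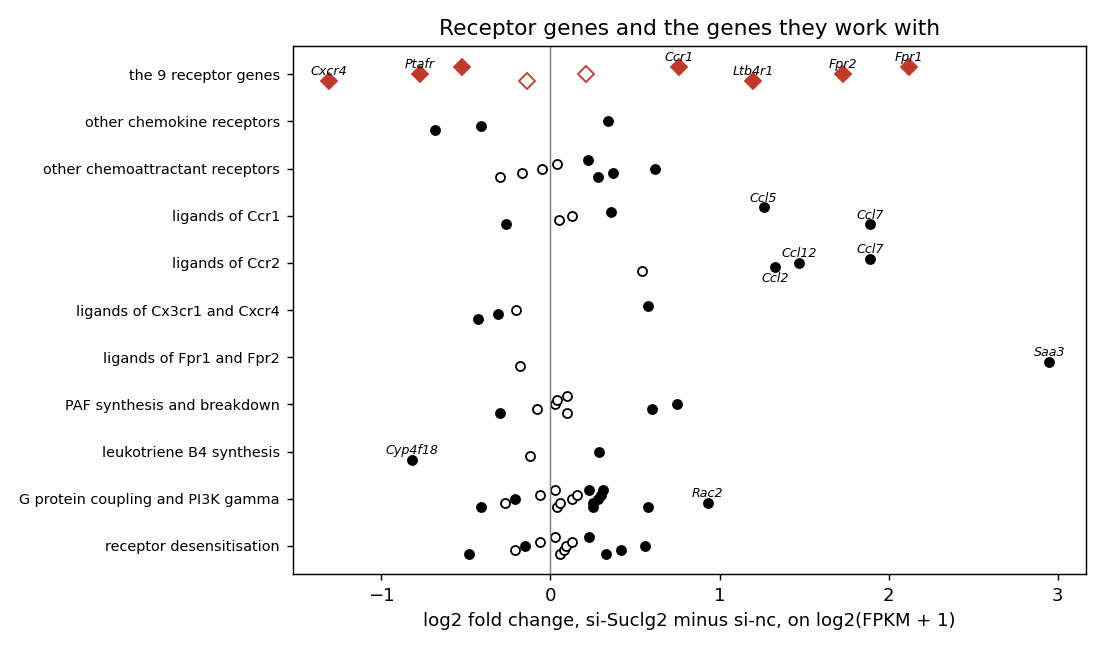
Log2 fold change (si-Suclg2 minus si-nc, on log2(FPKM + 1)) of the 9 receptor genes (diamonds, top row) and of each tested gene on the lists beside them (circles); filled symbols passed limma's adjusted p of 0.05. Saa3 at 2.95 and Fpr1 at 2.12 lie farthest right, and Cxcr4 at -1.31 farthest left.

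Downstream of the receptors, 8 of 17 genes for G proteins, phosphoinositide 3-kinase gamma and Rac activation rose and 2 fell, with a median log2 fold change of 0.16. The haematopoietic Rac gene Rac2 rose to 305.1 ± 12.3 FPKM in si-Suclg2 samples, against 160.0 ± 2.50 FPKM in si-nc samples (limma adjusted p = 1.38e-06), and Pik3cg, the catalytic subunit of phosphoinositide 3-kinase gamma, to 15.5 ± 0.847 FPKM with si-Suclg2, against 10.1 ± 0.985 FPKM with si-nc (limma adjusted p = 3.64e-04). Prex1, a Rac exchange factor, was at 64.7 ± 1.69 FPKM in si-Suclg2 and 55.0 ± 2.09 FPKM in si-nc samples, and Gng10, a G protein gamma subunit, fell to 10.5 ± 0.794 FPKM with si-Suclg2, against 14.2 ± 0.691 FPKM with si-nc. Of 13 genes that end receptor signalling, 4 rose and 2 fell, with a median of 0.08. The receptor kinase gene Grk2 rose to 115.7 ± 5.29 FPKM with si-Suclg2, against 91.6 ± 2.78 FPKM with si-nc, the arrestin gene Arrb2 to 293.7 ± 29.7 FPKM with si-Suclg2, against 198.8 ± 21.6 FPKM with si-nc, and Rgs14 to 22.3 ± 1.22 FPKM with si-Suclg2, against 16.4 ± 0.922 FPKM with si-nc. Rgs10 fell to 99.2 ± 13.6 FPKM with si-Suclg2, against 138.6 ± 21.8 FPKM with si-nc (SD, n = 4 each). Over all these lists, with each gene counted once, 38 of 67 genes tested were called, 27 higher and 11 lower, beside 26.9% of all genes tested. The 9 receptor genes are not among the 67. The lists were chosen with earlier results of these data known, so this count describes them and does not test them.

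Markers of other cell types that could carry these receptors were read alongside. The neutrophil list was led by Csf3r, which monocytes also express, at 88.6 ± 3.37 FPKM in si-Suclg2 and 105.2 ± 15.9 FPKM in si-nc samples, and by Mmp8, at 14.7 ± 2.91 FPKM in si-Suclg2 and 13.4 ± 2.99 FPKM in si-nc samples (SD, n = 4 each). S100a8, a calprotectin subunit gene, was the only one of its 3 tested genes to pass and rose to 2.27 ± 0.723 FPKM in si-Suclg2 samples, against 1.18 ± 0.409 FPKM in si-nc samples (limma adjusted p = 0.0346). The other 7 of its 10 genes in the table had means under 1 FPKM in both groups: S100a9 reached at most 0.94, Ngp 0.85 and Cxcr2 0.78 FPKM in a sample, and Ly6g, Mpo, Ltf and Camp stayed below 0.2 FPKM. The summed level of the list was 105.1 to 108.8 FPKM in si-Suclg2 samples and 108.8 to 136.4 FPKM in si-nc samples. It rested mainly on Csf3r, which monocytes also express, so it does not track neutrophils alone. Fpr1 and Fpr2, which neutrophils also carry, and S100a8 rose. The rest of the neutrophil list did not follow S100a8 as a set. Means of S100a9 (0.0475 FPKM with si-Suclg2 against 0.305 FPKM with si-nc), Ngp (0.14 against 0.32 FPKM), Ltf, Mpo and Csf3r were lower with si-Suclg2. Those of Cxcr2, Ly6g and Mmp8 were higher, and that of Camp was equal. Of these, only Csf3r and Mmp8 were tested, and neither was called. Summed macrophage and monocyte markers were 12368 to 15111 FPKM in si-Suclg2 samples and 14883 to 18221 FPKM in si-nc samples. This sum rested mainly on Lyz2, itself lower with si-Suclg2, so it does not describe the list as a whole. Of the 10 genes of that list, 3 were higher and 3 lower, beside 12.0% and 14.9% of all genes tested. Adgre1, Fcgr1 and Ly6c2, a marker of inflammatory monocytes, were higher, with ratios of means of 1.79, 1.46 and 1.93. Ly6c2 was at 391.2 ± 124.5 FPKM in si-Suclg2 and 202.7 ± 43.6 FPKM in si-nc samples (limma adjusted p = 0.0155). Cd68, Csf1r and Lyz2 were lower, with ratios of means of 0.853, 0.755 and 0.718. The part of these genes in the receptor changes was not tested. Summed conventional dendritic cell markers were 93.7 to 151.3 FPKM in si-Suclg2 samples and 164.5 to 212.7 FPKM in si-nc samples, with Itgax and Clec10a lower. The sum rested mainly on H2-Ab1, which macrophages also express and which was not called (limma adjusted p = 0.0546). Batf3 had the higher mean with si-Suclg2 and did not pass (limma adjusted p = 0.0675). Stroma markers, which a remnant of the coculture would bring, summed to 38.1 to 50.1 FPKM in si-Suclg2 samples and 29.9 to 56.3 FPKM in si-nc samples, and the genes of this list did not move together. Pdpn, the most abundant, rose to 27.1 ± 3.27 FPKM with si-Suclg2, against 20.6 ± 2.87 FPKM with si-nc (limma adjusted p = 0.0300). Col1a1, Col1a2, Col3a1 and Fn1 were at 54.9% to 58.9% of their si-nc means without passing, and all 4 were called lower with the replicate block (limma adjusted p of 0.00694 to 0.0353). Dcn was at 4.68 ± 1.14 FPKM in si-Suclg2 and 5.48 ± 1.44 FPKM in si-nc samples and did not pass. The T and NK cell list summed to 0.39 to 0.79 FPKM in si-Suclg2 samples and 0.43 to 0.92 FPKM in si-nc samples, and the B cell list to 0.09 to 0.24 FPKM in si-Suclg2 samples and 0.05 to 0.31 FPKM in si-nc samples. The endothelial list rested mainly on Kdr, at 25.9 ± 5.18 FPKM in si-Suclg2 and 25.1 ± 3.40 FPKM in si-nc samples, and the mast cell list mainly on Cpa3, at 2.10 ± 0.821 FPKM in si-Suclg2 and 1.58 ± 0.236 FPKM in si-nc samples. The part of other cell types in the receptor values was not tested.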

How the data were processed

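Bulk RNA of 4 si-Suclg2 and 4 si-nc samples was read by Illumina sequencing after TRIzol extraction, per the labels' protocols. The authors deposited 1 table for 15465 genes: sample values, a log2 fold change and DEGseq statistics (a p-value and a q-value, per the file headers). Genome builds were GRCm38.p4 and mm10, per the submitters' processing notes. Which aligner, counter and annotation were used is not given in the sources used here. No unit stands in the header. The deposited values were treated as FPKM because the reads implied by p-value and fold change, per unit of value, followed transcript length (rho = 0.86 over 4605 genes, which do not count as replicates) and, per kilobase, had medians of 80.7 to 83.2 over 8 length classes. No counts are given, so depth and counting error are unknown. In 22 rows a gene symbol that had become a date was restored.

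Genes with a mean of at least 1 FPKM in a group (10176) entered limma 3.58.1 (R 4.3.3) after log2(FPKM + 1), with a variance trend, no term but group, and p-values adjusted over all of them by Benjamini-Hochberg at 0.05; the code was tested on simulated data. Fold changes are si-Suclg2 minus si-nc. Each receptor gene also had a two-sided exact permutation test. Promoters are RefSeq's (8 of 9 receptor genes matched) and positions GENCODE M21's. Alternatives were trimmed-mean (TMM, unweighted) and quantile scaling, pseudocounts, filters, no variance trend, the replicate number as a block, 1 sample left out, numbers 1 and 2 or 3 and 4 alone, and averages of these pairs; the interaction of group and number pair was added after seeing the data. The labels number both groups 1 to 4. Deviations from the group means correlated across genes at 0.40 to 0.55 for equal numbers. The correlation was as high, 0.44 to 0.56, between number 1 and number 2 and between 3 and 4. It thus marks the division into number pairs and does not single out equal numbers. Reading same-numbered samples side by side, and the block, therefore rest on the labels' numbering alone. Genes named were drawn from the 9 receptor genes and the listed ligands, enzymes and receptors. Also drawn on were 4 signalling genes a list by p, the 3 most abundant markers a list and the 3 nearest profiles. Not every gene of these sets was named. Adgre1, Fcgr1, Csf1r, Flt3, Zbtb46, Clec9a, Batf3, Ly6c2, Ly6g, S100a9, Ngp, Mpo, Ltf, Camp, Cxcr2, Col1a1, Col1a2 and Col3a1 were added after their values were seen. The members and lists were chosen with earlier results of these data known. The result of 1 listed gene is not reported here.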

Additional observations from a re-analysis of the deposited data

Results flagged for a closer look

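The change with si-Suclg2 differed between the samples numbered 1 and 2 and those numbered 3 and 4 for 3 of the 9 receptor genes, by limma's interaction test across all genes. For Ccr7 the log2 fold change in numbers 3 and 4 minus that in numbers 1 and 2 was -0.92, with -0.61 in numbers 3 and 4 and 0.32 in numbers 1 and 2. For Ccr1 it was 0.72, with a rise in all 4 numbers, and for Cxcr4 -0.38, with a fall in all 4. Among all genes tested, 5 were called higher in numbers 1 and 2 alone and lower in numbers 3 and 4 alone. The number pairs were seen in these data and are not groups of the study. None of the receptor genes, nor Suclg2, had a sample that stood apart within its group by Dixon's test. With 4 values a group this test has little power, and it looks for a single stray sample rather than a division into pairs.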

How the results depend on the processing

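Fpr1, Fpr2, Ltb4r1, Cxcr4, Ptafr and Suclg2 kept direction and call under all 11 alternative settings and with any sample left out. Ltb4r1 passed the filter of the main fit only through si-Suclg2, so its difference there is partly built into its selection. The count of all genes called was 4126 with the replicate block and 272 when averages of number pairs were the replicates, where 8 of the 67 listed ligand, enzyme, receptor and signalling genes were called; fewer samples were then fitted. Besides the changes for Ccr1, Ccr2, Ccr7 and Cx3cr1 given with their values above, Ccr7 reversed to 0.32 in numbers 1 and 2 alone, and Cx3cr1 was called in numbers 3 and 4 alone (0.34, limma adjusted p = 0.0160). Fits within a number pair rest on samples that resembled each other and may be technical. Without si-Suclg2 replicate 4 the log2 fold change of Cx3cr1 was -0.0015, and up to 0.44 without another sample. The replicate block changed no other call among the 9 receptor genes. Leaving out 1 sample gave 2127 to 2624 genes called, 4 receptor genes higher, 2 to 3 lower, 6 to 7 without overlap, and 32 to 36 listed genes called. Library depth is unknown, so the counting error of the low genes Ltb4r1, Ccr7 and Cx3cr1 could not be given.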
